A study of Perna viridis with 2 samples.

Results

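The genes described here carry product names of neurotransmitter receptors, neuropeptides, peptide receptors, synaptic vesicle proteins and transmitter carriers in the mantle of a green mussel, Perna viridis. They were chosen by name alone: 153 of 78458 assembled genes had a product name that holds a word such as neuropeptide, acetylcholine receptor, glutamate receptor, serotonin, GABA, synaptotagmin, synaptic, complexin or neurexin, or begins with a symbol such as CHRN, GRI, HTR or SYT. By class they were 37 nicotinic acetylcholine receptor subunits, 2 muscarinic receptors, 3 acetylcholinesterases, 24 ionotropic and 11 metabotropic glutamate receptors, 11 serotonin receptors, 1 dopamine receptor, 2 GABA receptors, 2 neuropeptide precursors, 11 neuropeptide receptors and peptide-gated channels, 16 synaptotagmins, 1 neurexin, 7 other vesicle proteins, 17 carriers of the SLC6 family and 8 others, most of which match by letters only.

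Mature wild mussels with shells of 6 to 7 cm were taken off Zhuhai, and RNA was sequenced from pieces cut out of the mantle edge. One region was the periostracal groove, where the outer organic layer of the shell is secreted; the other was the submarginal zone, which lies between the mantle folds and the pallial line. All animals were untreated and of unknown genotype, no cell type was isolated, and 6 animals were pooled in each sample. The study states 3 biological replicates, but the tables used here hold 1 profile per region, in TPM (a length-adjusted transcript level that allows genes to be compared within a profile). Every TPM value was a whole multiple of 1/300, the step of a mean of 3 values with 2 decimals, so the values were read as the authors' means. No SD, p-value or test can be given, and whether 1 library of the 3 carries a value cannot be seen. In such bulk tissue, fewer cells of a type and less RNA per cell cannot be told apart. Both tables bear the groove's sample name over their values, and each was assigned to its region by the record that lists it. If they had been exchanged, every direction below would turn.

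Nerve cells signal by releasing small transmitters or peptides from vesicles. Synaptotagmins sense the calcium that triggers this release, complexins and SNARE proteins run the fusion, and neurexins hold the synapse together. Released acetylcholine, glutamate or serotonin opens ion channels or acts on G-protein-coupled receptors of the receiving cell, and acetylcholinesterase or sodium-coupled carriers end the signal. In bivalves, acetylcholine and serotonin act on catch muscle and serotonin on the beating of gill cilia. APGWamide and FMRFamide are small amidated peptides found in molluscs. Carriers of the SLC6 family also move taurine, betaine, creatine and amino acids in tissues outside the nervous system.

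The nerve genes were expressed at low levels in both regions. Summed over all 153, they had 476.79 TPM in groove tissue and 503.66 TPM in submarginal tissue, which was 0.0477% and 0.0504% of each profile. In at least one region 74 members reached 1 TPM and 13 reached 10 TPM, while 79 members (51.6%) stayed under 1 TPM in both. The same share was 51.9% over all genes and 28.1% over the 13167 genes whose product name says more than hypothetical or uncharacterised. The groove profile listed 3 members at 0 (1.96%) and the submarginal profile 9 (5.88%), and no member was at 0 in both. The shares at 0 were 11.7% and 12.9% over all genes, and 5.85% and 4.38% over those with an informative name.

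With 1 TPM added to each level, most members reaching 1 TPM lay within 2-fold between the regions. So did most genes overall (25139 of 37709), and the counts of members depend on the added amount. Ratios are log2 values, groove over submarginal zone, with 1 TPM added to each level, a scale that understates the change of low genes. Where a pair of levels is given without its regions, the groove comes first, and the log2 ratio follows in brackets. Of the 74 members reaching 1 TPM, 10 passed 2-fold toward the groove (13.5%; 13.4% of 37709 such genes overall and 7.55% of 9470 with an informative name), 14 passed it toward the submarginal zone (18.9%; 19.9% and 18.7%), and 50 neither. The shares of members thus lay near those of all genes; against genes with an informative name, the share toward the groove was the higher. At 4-fold with the higher region at 10 TPM or more, 2 members passed toward the groove (background 9.45% of all 5800 such genes and 4.38% of 2624 with an informative name) and 0 toward the submarginal zone (background 12.4% and 8.12%). The median log2 ratio of the 60 members averaging 1 TPM or more was -0.21 (quartiles -0.88 and 0.19), against -0.31 over all genes and -0.43 over those with an informative name. Median-of-ratios scaling scales levels by 0.36 log2 units toward the groove (less in ratios of low genes, because of the added 1 TPM). It moves the median of all genes to -0.05. The 2-fold split of members then became 12 and 8 and their median 0.063. Upper-quartile scaling gave 11 and 8 and a median of 0.048. The split of all genes turned as well. It was 17.2% toward the groove and 13.7% toward the submarginal zone with the first scaling, and 17% and 14% with the second.

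**Figure D1:**
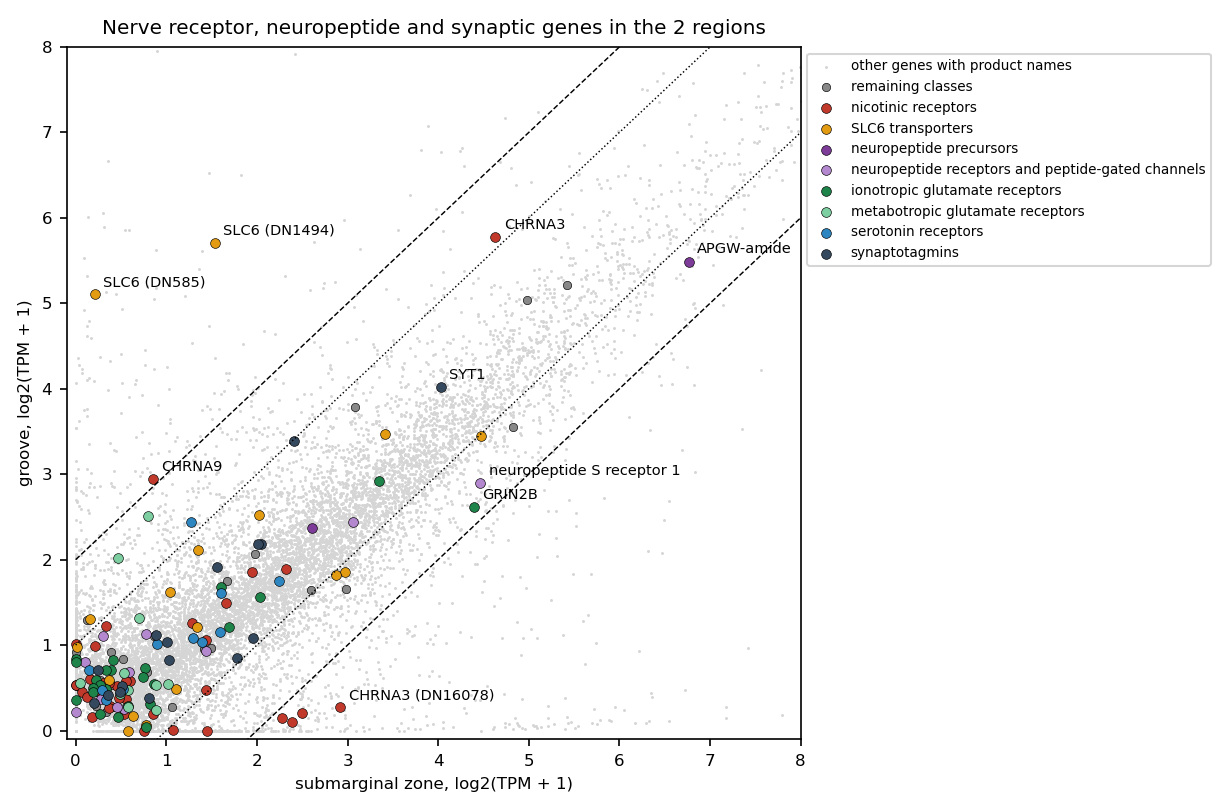
Level of each gene in the submarginal zone (x axis) and the groove (y axis), both as log2(TPM + 1), with members coloured by class and other genes with product names in grey. Dotted lines mark 2-fold and dashed lines 4-fold, both axes stop at 8, and a pair of SLC6 carriers (51.2 and 33.4 TPM in the groove, 1.89 and 0.157 TPM in submarginal tissue) stands farthest from the diagonal among the members.

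The neuropeptide precursors were led by the most abundant member of all. The APGW-amide-related neuropeptide (DN4790_c0_g1, with the prefix TRINITY left off here and below), the precursor of a peptide known in gastropods for acting on muscle and male reproductive organs, had 43.9 TPM in groove tissue and 108 TPM in submarginal tissue. This was a log2 ratio of -1.28, and the gene ranked 1004 and 580 among all genes. The FMRFamide-related precursor (DN28_c0_g1), of a peptide first found in a clam for its action on the heart, had 4.19 and 5.12 TPM (-0.24). Both precursors had the higher TPM in the submarginal zone. Under median-of-ratios scaling APGW-amide was no longer past 2-fold, with a ratio of -0.92, and the FMRFamide-related precursor turned to 0.058.

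Peptide receptors lay in the same direction by their sum, 16.3 TPM in groove tissue and 32.7 TPM in submarginal tissue over 11 members. Counted gene by gene they were split, as 6 had more TPM in groove tissue and 5 had less. Most of the difference in the sums was a single gene: neuropeptide S receptor 1 (DN4117_c0_g1), a G-protein-coupled receptor named after its vertebrate match, had 6.44 and 21.1 TPM (-1.57). This gene alone, among the 5 reaching 1 TPM, passed 2-fold (20%). The share past 2-fold toward the submarginal zone was 19.9% over all genes and 18.7% over those with an informative name. Neuropeptide Y receptor type 5 (DN41097_c0_g1), which mediates feeding responses in mammals, had 4.41 and 7.35 TPM (-0.63). A partial neuropeptide S receptor (DN24633_c0_g1) had 1.15 and 0.237 TPM (0.80), the opposite order. The other 8 stayed under 2 TPM in both regions, and the FMRFamide-activated sodium channel, a channel opened directly by a peptide, was at or under 0.443 TPM in both of its fragments.

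**Figure D2:**
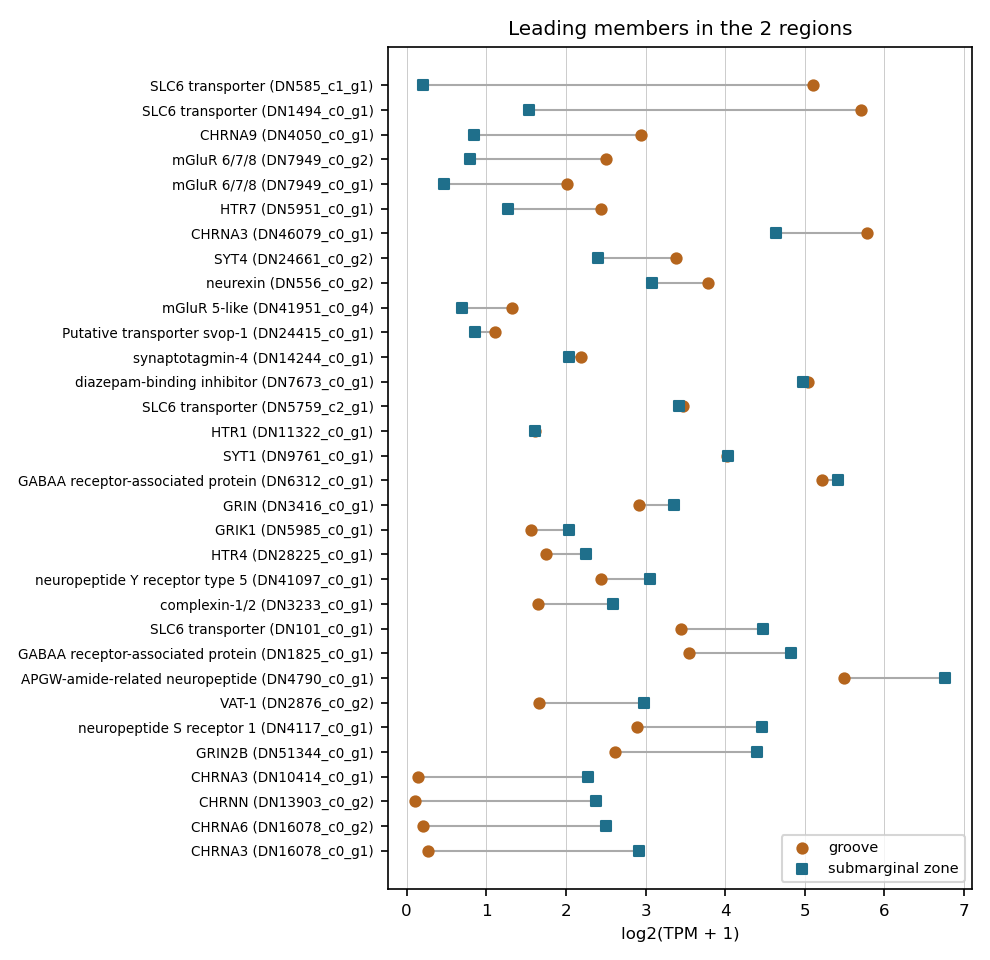
Level of each of the 32 leading members in the groove (circle) and the submarginal zone (square) as log2(TPM + 1), sorted by their ratio. SLC6 carriers, CHRNA9 and a pair of metabotropic glutamate receptors stand at the top with the groove higher, and 4 nicotinic subunits stand at the bottom with the submarginal zone higher.

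Nicotinic acetylcholine receptor subunits, which assemble in groups of 5 into a cation channel, formed the largest class. Their summed level was 81.15 TPM in groove tissue and 66.87 TPM in submarginal tissue, and in the groove a single subunit held most of it. CHRNA3 (DN46079_c0_g1), the match to the alpha-3 subunit of vertebrate ganglia, had 53.9 TPM in groove tissue and 23.8 TPM in submarginal tissue (1.15). Without it the class stood at 27.27 and 43.07 TPM, a log2 ratio of sums of -0.66 in place of 0.28. The median over subunits averaging 1 TPM or more was -0.40, against -0.31 over all genes and -0.43 over those with an informative name. Under median-of-ratios scaling these medians became -0.15, -0.05 and -0.14. All of them kept their sign under all 3 other scalings. Of the 16 subunits reaching 1 TPM, 3 (18.8%) passed 2-fold toward the groove, 6 (37.5%) toward the submarginal zone and 7 neither. All genes gave 13.4% and 19.9%, and those with an informative name 7.55% and 18.7%. One of the 6, an invertebrate nicotinic receptor (DN29528_c0_g3), was no longer past 2-fold under median-of-ratios scaling (-0.89).

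Nicotinic subunits differed between the regions one by one, with some detected almost wholly on one side. CHRNA9 (DN4050_c0_g1), the match to a subunit of the hair cell receptor in mammals, had 6.70 TPM in groove tissue and 0.80 TPM in submarginal tissue (2.10). A CHRNN subunit (DN54259_c0_g2) had 1.02 TPM in groove tissue and was listed at 0 in the submarginal zone. These, with the leading CHRNA3, were the 3 subunits higher in the groove by 2-fold.

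In the submarginal zone, 4 subunits reached 3 TPM while each stayed at or under 0.207 TPM in the groove. CHRNA3 (DN16078_c0_g1) had 0.207 and 6.58 TPM (-2.65), and CHRNA6 (DN16078_c0_g2), the match to a subunit found on dopamine neurons in mammals, 0.157 and 4.66 TPM (-2.29). This pair came from 1 assembly component and can share reads. CHRNN (DN13903_c0_g2) had 0.0733 and 4.22 TPM (-2.28), and another CHRNA3 (DN10414_c0_g1) 0.107 and 3.84 TPM (-2.13). With no minimum level, these 4 were the members that passed 4-fold in the submarginal zone, out of 37 members reaching the 3 TPM that such a ratio needs; 8.76% of 16210 such genes did so overall and 5.90% of 6033 with an informative name. In the groove, 3 members passed without a minimum, CHRNA9 and a pair of SLC6 carriers, where the background was 6.31% and 3.20%. Under median-of-ratios scaling DN13903_c0_g2 (by a narrow margin) and DN10414_c0_g1 (-1.85) no longer passed 4-fold, and with a pseudocount of 5 TPM 3 of the 4 no longer passed 2-fold.

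A second fragment of the leading CHRNA3 component ran against it. DN46079_c0_g3 was listed at 0 in the groove and had 1.74 TPM in submarginal tissue (-1.45), while its component mate was the higher in the groove. The sixth subunit past 2-fold in the submarginal zone, DN29528_c0_g3, had 0.00667 and 1.10 TPM (-1.06). Subunits of more even level included several CHRNN genes: DN57616_c0_g1 had 2.72 and 3.98 TPM, DN2493_c0_g1 2.61 and 2.87 TPM, and DN43497_c0_g1 1.81 and 2.16 TPM. Just inside 2-fold were CHRNN DN16532_c0_g1, with 0.387 and 1.71 TPM (-0.97), and CHRNN DN36605_c0_g2, with 1.34 and 0.26 TPM (0.90). The other 21 subunits were under 1 TPM in both regions, among them the CHRNA10 and CHRNB1 pairs.

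**Figure D3:**
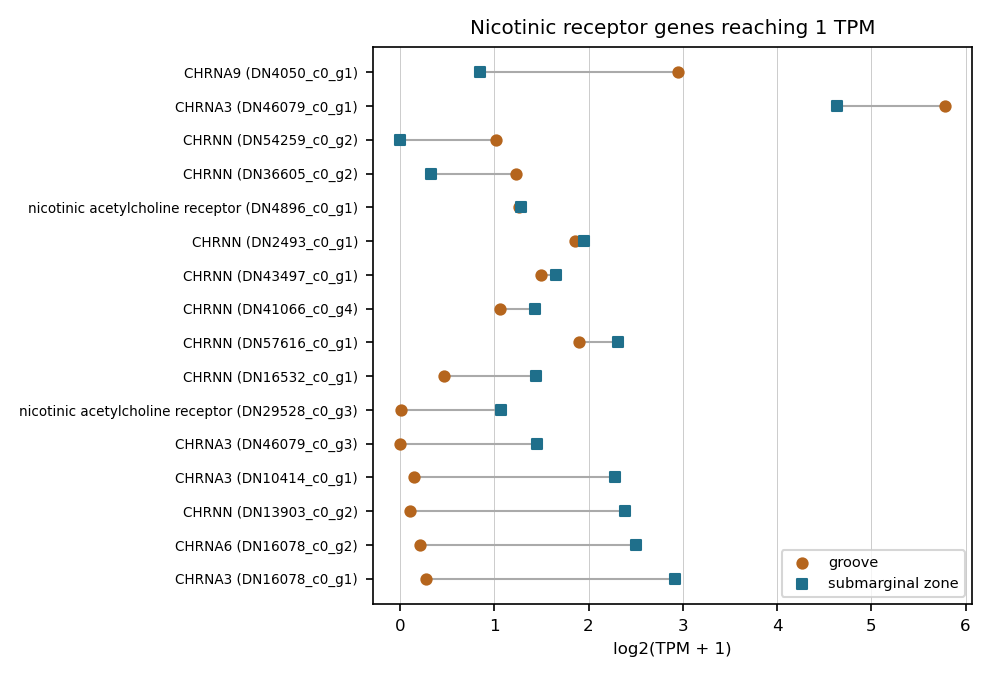
Level of the 16 nicotinic receptor genes reaching 1 TPM, as log2(TPM + 1), in the groove (circle) and the submarginal zone (square). The leading CHRNA3 and CHRNA9 are higher in the groove, while 4 genes at 3.84 to 6.58 TPM in submarginal tissue are near 0 in the groove.

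The other parts of acetylcholine signalling were low in both regions. ACHE (DN10925_c0_g1), the enzyme that breaks acetylcholine down at the synapse, had 3.20 TPM in groove tissue and 2.93 TPM in submarginal tissue (0.09). A carboxylesterase that lists acetylcholinesterase among its matches (DN15135_c0_g1) had 1.45 and 0.0867 TPM (1.17), and its first match is an inactive enzyme. Muscarinic receptors, the G-protein-coupled type, stayed under 1 TPM: M3 (DN43525_c0_g1) had 0.817 TPM in the groove and was listed at 0 in the submarginal zone, and a partial gene (DN45795_c0_g2) had 0.45 and 0.317 TPM.

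Ionotropic glutamate receptors, channels opened by glutamate, were higher in the submarginal zone by their sum, with 25.57 TPM in groove tissue and 43.23 TPM there. GRIN2B (DN51344_c0_g1), a glutamate-binding subunit of NMDA receptors, accounted for most of the difference with 5.12 and 20.1 TPM (-1.78). A gene named GRIN for the same receptor type (DN3416_c0_g1) had 6.58 and 9.21 TPM (-0.43), and GRIN1, the obligate subunit of vertebrate NMDA receptors, 1.31 and 2.24 TPM. The kainate receptor subunit GRIK1 (DN5985_c0_g1) had 1.95 and 3.10 TPM (-0.48). Of the 5 reaching 1 TPM, GRIN2B alone passed 2-fold (20%). Toward the submarginal zone, 19.9% of all genes did so and 18.7% of those with an informative name. The other 19 stayed under 1 TPM in both regions, including all AMPA-type and delta-type subunits (GRIA and GRID). Among these low genes, a pair of GRIK3 fragments (DN64429_c0_g1 and DN20491_c0_g2) had 0.787 and 0.743 TPM in the groove and was listed at 0 in the submarginal zone.

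Metabotropic glutamate receptors, which act through G proteins, had a higher sum in the groove that rested on 1 component, with sums of 12.33 TPM in groove tissue and 6.31 TPM in submarginal tissue. A pair of fragments named for mammalian group III receptors, mGluR6/7/8, led them: DN7949_c0_g2 had 4.69 and 0.74 TPM (1.71), and DN7949_c0_g1 3.05 and 0.38 TPM (1.55). Both come from 1 component, so they may count a single gene. Without them the sums were 4.59 and 5.19 TPM, and 6 of 9 receptors were higher in the submarginal zone. Neither of the 2 that reached 1 TPM was past 2-fold. The mGluR5-like gene (DN41951_c0_g4), of the type that releases calcium from stores in mammals, had 1.49 and 0.62 TPM (0.62). Another mGluR6/7/8 pair from component DN12200_c0 was the higher in the submarginal zone, at 1.02 against 0.453 TPM and 0.85 against 0.183 TPM.

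Serotonin receptors had nearly the same sums, 15.0 TPM in groove tissue and 14.2 TPM in submarginal tissue over 11 genes, of which 7 reached 1 TPM. HTR7 (DN5951_c0_g1), of a receptor type that raises cyclic AMP in vertebrates, had 4.45 and 1.42 TPM (1.17). It alone of the 7 passed 2-fold (14.3%). Toward the groove, 13.4% of all genes did so and 7.55% of those with an informative name. HTR4 (DN28225_c0_g1), also coupled to cyclic AMP in vertebrates, had 2.37 and 3.75 TPM (-0.50), and HTR1 (DN11322_c0_g1), of the type that lowers it, 2.05 and 2.04 TPM (0.00). The order of the types thus differed between regions, HTR7 first in the groove and HTR4 first in the submarginal zone. The one dopamine receptor (0.377 and 0.207 TPM) and both GABA receptor genes, named GABRA (up to 0.263 TPM), stayed under 1 TPM.

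**Figure D4:**
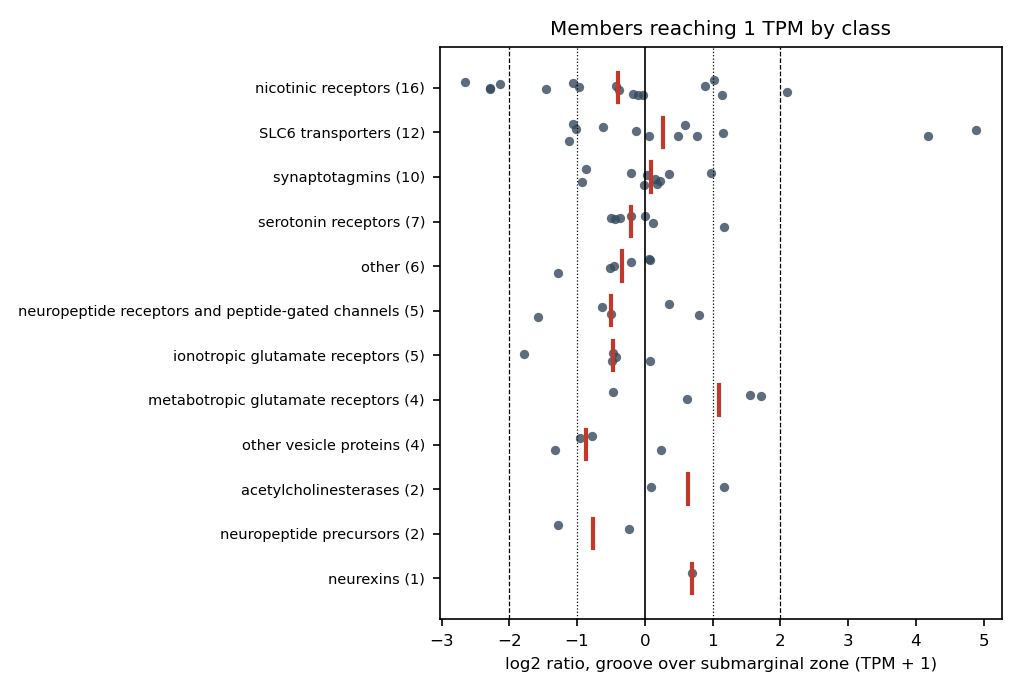
Log2 ratio of groove over submarginal zone (x axis) of each member reaching 1 TPM, by class, with the number of such members in brackets and a red bar at their median. Dotted and dashed lines mark 2-fold and 4-fold; most points lie within 2-fold, and the nicotinic subunits and SLC6 carriers are spread most widely.

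Summed over the class, synaptotagmins differed little between the regions. SYT1 (DN9761_c0_g1), the calcium sensor of fast release, had 15.2 TPM in groove tissue and 15.3 TPM in submarginal tissue (-0.01). SYT4 (DN24661_c0_g2), a synaptotagmin of dense-core vesicles in other animals, had 9.44 and 4.29 TPM (0.98), and a gene named synaptotagmin-4 (DN14244_c0_g1) 3.56 and 3.12 TPM (0.15). With 1 TPM added, none of the 10 synaptotagmins reaching 1 TPM was past 2-fold. All genes gave 13.4% toward the groove and 19.9% toward the submarginal zone, and those with an informative name 7.55% and 18.7%. Over all 16 the sums were 41.78 and 38.13 TPM. The 16 include SYTL (DN7829_c0_g1), a symbol of synaptotagmin-like proteins, with 2.78 and 1.94 TPM. At the submarginal end of the class were synaptotagmin-6 (DN28898_c0_g1), with 0.803 and 2.44 TPM (-0.93), and synaptotagmin-14/16 (DN22813_c0_g1), with 1.12 and 2.87 TPM (-0.87). SYT4 lay at the threshold: its ratio was 1.27, 1.25 and 1.02 under the 3 other scalings and 1.12 with a pseudocount of 0.1 TPM.

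Neurexin (DN556_c0_g2), the presynaptic adhesion protein, had 12.8 TPM in groove tissue and 7.45 TPM in submarginal tissue (0.70; 1.02 under median-of-ratios scaling). Complexin-1/2 (DN3233_c0_g1), which binds the assembled fusion complex, had 2.13 and 5.04 TPM (-0.95), the opposite order. Complexin was one of 7 other vesicle proteins, with sums of 7.94 and 15.3 TPM. VAT-1 (DN2876_c0_g2), first described on synaptic vesicles of an electric ray, had 2.16 and 6.89 TPM (-1.32). Synapsin (DN12514_c0_g1), which tethers vesicles in reserve, was low and even at 0.603 and 0.723 TPM. A vesicular amine transporter-like gene (DN36102_c0_g1), of the type that loads monoamines into vesicles, had 0.213 and 1.08 TPM (-0.78).

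SLC6 carriers held the 2 members with the widest differences, the only ones past the 4-fold rule, among 4 carriers reaching 10 TPM. Toward the groove, 9.45% of all genes reaching 10 TPM passed this rule and 4.38% of those with an informative name. DN1494_c0_g1, matched first to the neutral and basic amino acid transporter B(0+) and then to taurine, glycine, GABA and betaine carriers, had 51.2 TPM in groove tissue and 1.89 TPM in submarginal tissue (4.17), ranking 899 and 19380. DN585_c1_g1, named for the GABA, taurine, betaine and creatine branch of the family, had 33.4 and 0.157 TPM (4.89), ranking 1257 and 63897. Their product names do not settle which of these substrates they carry. They set the sum of the class: 124.8 TPM in groove tissue and 56.62 TPM in submarginal tissue with them, and 40.15 and 54.57 TPM without.

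The other 15 SLC6 carriers went both ways. DN101_c0_g1, matched first to GABA transporter 2, had 9.93 and 21.2 TPM (-1.02), and DN5759_c2_g1, matched first to B(0+), 10.1 and 9.67 TPM (0.06). DN34213_c0_g1, matched first to a creatine transporter, had 2.62 and 6.88 TPM (-1.12), and DN5166_c0_g1, matched first to GABA transporter 2, 2.53 and 6.35 TPM (-1.06). These 3 carriers past 2-fold in the submarginal zone faced DN36005_c0_g1, higher in the groove at 1.47 and 0.113 TPM (1.15). They were 30% toward the submarginal zone and 10% toward the groove of the 10 that reached 1 TPM among these 15. Toward the groove, 13.4% of all genes passed 2-fold and 7.55% of those with an informative name. Toward the submarginal zone, the shares were 19.9% and 18.7%. Under median-of-ratios scaling none of these 3 submarginal carriers was past 2-fold, with ratios of -0.68, -0.81 and -0.75.

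Of the 8 remaining members, most match the name rule by letters only and are known for other roles. A pair of GABA(A) receptor-associated proteins, members of the ATG8 family of autophagy, had 36.0 and 41.8 TPM (DN6312_c0_g1, -0.21) and 10.7 and 27.4 TPM (DN1825_c0_g1, -1.28; -0.93 under median-of-ratios scaling). The diazepam-binding inhibitor (DN7673_c0_g1), an acyl-CoA binding protein, had 31.8 and 30.5 TPM (0.06). The golgin GCC2, the mitochondrial protease HtrA2 and GRINL1A were under 3 TPM. A glutamate receptor-interacting protein (DN68175_c0_g1), named for a synaptic scaffold in mammals, had 0.89 TPM in the groove and was listed at 0 in the submarginal zone. Without these genes and the SLC6 carriers, 128 members remained, with 268.12 TPM in groove tissue and 341.38 TPM in submarginal tissue. Only 6 of these reached the 10 TPM that the 4-fold rule needs, and none passed it. Of all genes reaching 10 TPM, 9.45% passed toward the groove and 12.4% toward the submarginal zone. Those with an informative name gave 4.38% and 8.12%. Of the 56 reaching 1 TPM, 7 (12.5%) passed 2-fold toward the groove and 10 (17.9%) toward the submarginal zone. These shares lay near the 13.4% and 19.9% of all genes. Genes with an informative name gave 7.55% and 18.7%, against which the share toward the groove was the higher. The median log2 ratio was -0.30.

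Several names stood on more than one assembled fragment. The 153 members came from 131 assembly components, and 19 components held 41 of them, in 13 of which all fragments had the same direction. The best database match was to Mytilus coruscus for 64 members, to Mytilus galloprovincialis for 51 and to Mytilus edulis for 32. Fragments of 1 component, and genes of 1 family, can share reads, so single values within a family are uncertain to that extent.

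Other genes of nerve cells, outside the name rule, also had near-equal sums in the 2 regions. This list of release machinery, transmitter and peptide enzymes, adhesion proteins and voltage-gated channels held 106 genes with 266.54 TPM in groove tissue and 272.33 TPM in submarginal tissue. Of 54 genes reaching 1 TPM, 7 passed 2-fold toward the groove and 11 toward the submarginal zone, shares near the 13.4% and 19.9% of all genes, and the median log2 ratio was -0.22. Peptidylglycine monooxygenase, which makes the C-terminal amide that APGWamide and FMRFamide carry, went both ways over 12 genes of that name, 6 higher in each region, with sums of 91.41 and 60.21 TPM. At the ends were DN6298_c0_g1, with 18.0 and 1.01 TPM (3.24), and DN24418_c1_g1, with 1.02 and 5.87 TPM (-1.77), while the most abundant, DN8457_c0_g1, had 29.9 and 11.7 TPM (1.29). CACNG5 (DN675_c0_g1), an accessory subunit of calcium channels and glutamate receptors in vertebrates, had 29.6 and 0.427 TPM (4.42), whereas another CACNG5 gene (DN16069_c0_g1) had 3.79 and 8.77 TPM (-1.03). Over 4 CACNG5 genes the sums were 38.5 and 10.6 TPM. Without these and the monooxygenases, the sum of the list was higher in the submarginal zone. RAB3C (DN232_c0_g1), a GTPase of secretory vesicles, had 5.23 and 25.2 TPM (-2.08), and ELAVL1 (DN245_c0_g1), an RNA-binding protein that is not limited to neurons in vertebrates, 9.39 and 23.7 TPM (-1.25).

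By their sums, genes of other cell types differed more between the regions than the nerve genes did. The summed level of 28 muscle genes was 5188 TPM in groove tissue and 15968 TPM in submarginal tissue (log2 ratio -1.62), of 105 cilia genes 444 and 1235 TPM (-1.48), of 10 germ cell genes 25.1 and 483 TPM (-4.27), and of 16 haemocyte genes 1452 and 2419 TPM (-0.74). The sum of all 153 members had a ratio of -0.08, and that of the 128 without carriers and letter matches -0.35. Under median-of-ratios scaling these became 0.28 and 0.012, against -1.26 for muscle, -1.11 for cilia, -3.91 for germ cells and -0.38 for haemocytes. Values of 0 in the groove were listed for 8 muscle (28.6%), 12 cilia (11.4%), 1 germ cell (10%) and 0 haemocyte genes. In the submarginal zone they were listed for 3 (10.7%), 9 (8.57%), 0 and 0. All genes gave 11.7% and 12.9%, and those with an informative name 5.85% and 4.38%. Receptors higher in the submarginal zone, such as GRIN2B, neuropeptide S receptor 1 and the 4 nicotinic subunits, lay in the same direction as these lists, and the part of muscle, cilia or germ cells in those values was not tested.

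**Figure D5:**
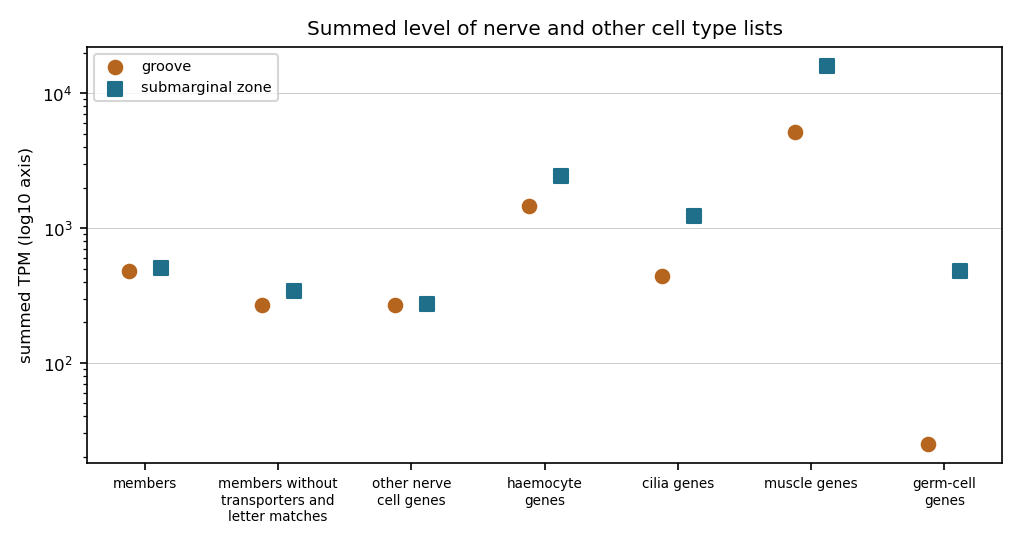
Summed TPM (log10 axis) of the nerve genes and of the lists of other cell types in the groove (circle) and the submarginal zone (square). All members lie nearly level at 476.79 and 503.66 TPM, as do other nerve cell genes at 266.54 and 272.33 TPM. These near-equal sums hold genes that differ in both directions. Members without carriers and letter matches lie at 268.12 and 341.38 TPM. Muscle, cilia and germ cell genes are farther apart, with the submarginal zone higher.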

How the data were processed

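Bulk RNA was sequenced from 2 mantle regions, with 6 animals per sample and libraries from an Illumina TruSeq kit, per the labels' protocols. In the tables as deposited, each assembled gene has 1 TPM value for each region. Per the submitters' processing notes fastp was used. Which assembler, quantifier and annotation were used is not given in the sources used here. Read depth is unknown, since TPM does not hold it. Genes with empty cells (5) were dropped. The profiles summed to 999875 and 999820 TPM, with 27265 and 30571 genes at 1 TPM or more.

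Log2 ratios used a pseudocount of 1 TPM. The call rules were 4-fold with the higher region at 10 TPM or more, and 2-fold at 1 TPM or more, applied to the whole table. Only the 4-fold rule was run on simulated data, in which the changed genes were far more abundant than most members. The 2-fold rule was not simulated. Leading members were all those reaching 10 TPM, up to 3 per class by mean among those reaching 1 TPM, and up to 8 per direction by ratio among those reaching 2 TPM, 32 in all; other members named were chosen after their values were seen. The members and lists were chosen with earlier results of these data known. Alternatives were other pseudocounts, minimums and scalings. Scripts ran in Python 3.11.15 with pandas 2.3.3 and numpy 2.4.6, and figures were drawn with matplotlib 3.10.9. A genome and proteome data were not used here.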

Additional observations from a re-analysis of the deposited data

How the results depend on the processing

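No paired analysis was possible because each region has 1 profile. The 4-fold counts of 2 toward the groove and 0 toward the submarginal zone held under both other pseudocounts and all 3 other scalings. The submarginal count was 1 with a minimum of 5 TPM and 4 with none. The groove count was 0 without the SLC6 carriers and letter matches, an alternative chosen after seeing the data. Only 6 members reached 10 TPM in that alternative. At 2-fold, a pseudocount of 0.1 TPM gave 15 members toward the groove and 21 toward the submarginal zone. With a pseudocount of 5 TPM, 4 and 5 were left. A minimum of 5 TPM left 4 and 9. Median-of-ratios and upper-quartile scaling each left 8 toward the submarginal zone. The share of all genes there fell from 19.9% to 13.7% and 14%. The median log2 ratio, -0.21 as reported, was -0.26 and -0.10 with pseudocounts of 0.1 and 5 TPM, 0.063 and 0.048 under those scalings, -0.17 on the total without the 10 most abundant genes, -0.11 with a mean of at least 5 TPM, 0.010 over all detected members and -0.30 without carriers and letter matches. The log2 ratio of the sums, -0.08, was 0.28 and 0.26 under those scalings, -0.026 on the total without the 10 most abundant genes, 0.13 without the APGW-amide precursor, -0.35 without carriers and letter matches, and -0.072 with 1 member per assembly component, the last also chosen after seeing the data. The sign of the median thus turned with the scaling and the filter, and that of the sum with the scaling and 1 member; the cause was not tested. Of the 32 leading members, 8 fell below 2-fold with a pseudocount of 5 TPM, which lowers the ratios of low genes, and 3 under median-of-ratios scaling, while SYT1 and a GABA(A) receptor-associated protein (DN6312_c0_g1) changed sign within 2-fold. With no depth known, values near 0 cannot be given a counting interval.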

Other observations

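SLC6 genes whose names hold none of the words of the rule showed a similar spread, and they were looked up after the values of the carriers above had been seen. Of 20 such genes, 8 reached 10 TPM, of which 2 (25%) passed 4-fold toward the groove and 1 (12.5%) toward the submarginal zone. All genes gave 9.45% and 12.4%, and those with an informative name 4.38% and 8.12%. SLC6A6 (DN32618_c0_g2), named for the taurine transporter, had 32.8 TPM in groove tissue and 1.30 TPM in submarginal tissue (log2 ratio 3.88). SLC6A5_9 (DN52137_c0_g4), named for glycine transporters, had 22.2 and 1.43 TPM (3.26). An amino acid carrier of the same family (DN13361_c0_g1) had 4.40 and 23.4 TPM (-2.17). Their sums were 196.4 and 149.9 TPM.

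Neuroligins, the partners of neurexin across the synapse, were also looked up after values were seen. Of 6 such genes, 3 reached 1 TPM, and the sums were 2.48 and 6.88 TPM. Submarginal tissue had more TPM for 4 of them. The 2 higher in groove tissue stayed under 1 TPM and came from 1 component, so they may count a single gene. The 6 ranged from DN26780_c0_g1, with 0.02 and 3.14 TPM (-2.02), to DN29102_c0_g1, with 0.48 and 0.20 TPM (0.30). DN19595_c0_g1 had 1.11 and 1.41 TPM.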
